A study of Mus musculus with 9 samples.

Results

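The clustered protocadherins are the cell surface proteins encoded by the alpha, beta and gamma protocadherin gene clusters. Members were taken as every gene symbol of the count table that consists of Pcdh, then a, ac, b, ga, gb or gc, and a number. This rule uses no measured value and found 57 of 55276 symbols, with 13 in the alpha, 22 in the beta and 22 in the gamma cluster. RNA was sequenced from PPTR cells, a mouse intrahepatic cholangiocarcinoma line grown from liver cancer organoids, in a control culture (Vcam1ctrl, called WT in the sample labels) and in the CRISPR/Cas9 knockout clones Vcam1KO1 and Vcam1KO2. All 3 conditions share 1 engineered tumor genotype, which includes Prom1CreERT2 and Rosa-ZsGreen and in which the Prom1 promoter drives the tamoxifen-dependent Cre, and none of the cells received a further treatment according to the labels. Each knockout line was grown from 1 single cell, whereas the control culture is not described as a clone, so the loss of Vcam1 and the history of each clone cannot be told apart. There were 3 libraries per condition, each from a different passage, and 9 in all, so p values measure the spread between passages of 1 culture or clone.

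Clustered protocadherins are cadherin-like adhesion proteins that form dimers on 1 cell and bind the same isoform on a facing cell, and they are best known for giving single neurons a surface identity. Each cluster is a tandem array of large first exons, and every such variable exon encodes a whole extracellular part and has its own promoter. A variable exon of the alpha or gamma cluster is spliced to constant exons shared by all isoforms of that cluster, which encode the common cytoplasmic end, while a beta gene is a single exon with no constant part. In neurons, promoters are chosen largely at random in each cell through DNA methylation and looping by CTCF and cohesin. In cells that divide, the choice can be passed on to daughter cells. The C-type isoforms at the end of the alpha and gamma clusters differ from the rest in sequence and are often switched on independently of that choice.

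In the GRCm38 build with the GENCODE vM21 annotation all members lie on the plus strand of chromosome 18. The alpha cluster spans 36930184 to 37187661, the beta cluster 37264938 to 37524479 and the gamma cluster 37661793 to 37841873. The constant part consists of 3 blocks with 2860 nt in alpha and 3 blocks with 2119 nt in gamma transcripts. A read that falls in these blocks fits every isoform of its cluster, and kallisto divides such reads by the reads that fit only 1 isoform. Of all 31-base words in a member's longest transcript, a median of 35.9% (range 2.18 to 51.6%) were found in no other gene for alpha members, 52.6% (range 32.2 to 58.3%) for gamma members and 88.2% (range 77.5 to 100%) for beta members. Levels of alpha and gamma isoforms thus rest on fewer separating reads than those of beta genes, and a low value beside a very abundant isoform of the same cluster is less certain. The symbol Pcdha11 stands for 2 gene identifiers in this annotation, and Pcdhgb8 is annotated as a polymorphic pseudogene.

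Libraries held 53415907 to 125223073 counts, and the 3 counts taken as the limit of detection corresponded to 0.0239 to 0.0553 CPM (counts scaled to a common library size with TMM factors). The targeted gene Vcam1 stood at 248, 220.4 and 329 CPM in Vcam1ctrl, 98.8, 92.4 and 128 CPM in Vcam1KO1 and 119, 99.3 and 82.9 CPM in Vcam1KO2 libraries, so that transcripts remained in both clones below the control range. The paper reports that both clones lost Vcam1 by quantitative RT-PCR and by flow cytometry of the protein, which RNA counts do not measure. The third Vcam1KO1 library stood apart, with a chi-square per degree of freedom of 240.3 and 274.6 against its replicates where the other pairs within a condition gave 35.8 to 169.3. Of 9 biliary and epithelial markers, 6 fell in both clones (Krt19, Krt7, Krt8, Krt18, Epcam and Cdh1). The summed level of that list was 11498 to 12239.5 CPM in Vcam1ctrl, 244 to 452 CPM in Vcam1KO1 and 176 to 286 CPM in Vcam1KO2 libraries, and Krt18 and Epcam were at or under the limit of detection in Vcam1KO2. The epithelial label thus held for the control culture by its markers and not for the clones. The summed level of 8 fibroblast and stellate markers was 354 to 742, 9329.5 to 10673 and 5807 to 7098 CPM in the same order, with Lrat, a defining stellate gene, at or under the limit of detection in all conditions. Most of the sum in the clones was Col1a1, with means of 8527 CPM in Vcam1KO1 and 4733 CPM in Vcam1KO2. Of 6 tested markers, 4 were higher in Vcam1KO1 and 5 in Vcam1KO2 (29.9% and 25.3% of all tested genes). Col1a2 rose in Vcam1KO2 alone, and Des passed in neither clone. Shifts of these marker lists were present in each clone, so every comparison of a clone with the control also holds them. Their part in the protocadherin results was not tested.

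The cells expressed beta and gamma isoforms and almost no alpha isoforms, and the clones expressed more isoforms than the control culture. With expression taken as at least 0.5 CPM in every library of a condition, 13 of 57 members were expressed in Vcam1ctrl (1 alpha, 4 beta, 8 gamma), 30 in Vcam1KO1 (0 alpha, 14 beta, 16 gamma) and 20 in Vcam1KO2 (0 alpha, 8 beta, 12 gamma). Of the 13 isoforms of Vcam1ctrl, 12 were also expressed in both clones. The 12 isoforms shared by all 3 conditions were Pcdhb16, Pcdhb17, Pcdhb18 and Pcdhb22 and the gamma isoforms Pcdhgb2, Pcdhga6, Pcdhgb6, Pcdhgb7, Pcdhgb8, Pcdhgc3, Pcdhgc4 and Pcdhgc5. A further 7 were expressed in both clones and not in the control (Pcdhb14, Pcdhb19, Pcdhb20, Pcdhb21, Pcdhgb1, Pcdhga4 and Pcdhga11). Vcam1KO1 alone added 11 isoforms (Pcdhb5, Pcdhb7, Pcdhb9, Pcdhb11, Pcdhb12, Pcdhb15, Pcdhga1, Pcdhga2, Pcdhga3, Pcdhgb4 and Pcdhga8), Vcam1KO2 alone added Pcdhga12, and Pcdhac2 was expressed in Vcam1ctrl alone. The remaining 25 members reached that level in no condition, and 8 of them had 0 counts in all 9 libraries (Pcdha1, Pcdha2, Pcdha3, Pcdha6, Pcdha7, Pcdha12, Pcdhac1 and Pcdhb1). These sets depend on where the level is placed. With at least 0.1 CPM the control culture expressed 27 members, since many lay between 0.1 and 0.5 CPM there. The counts of both clones were also larger at that level, so 27 is not comparable with 30 and 20. The excess of Vcam1KO2 over the control was smaller there than at 0.5 CPM.

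**Figure D1:**
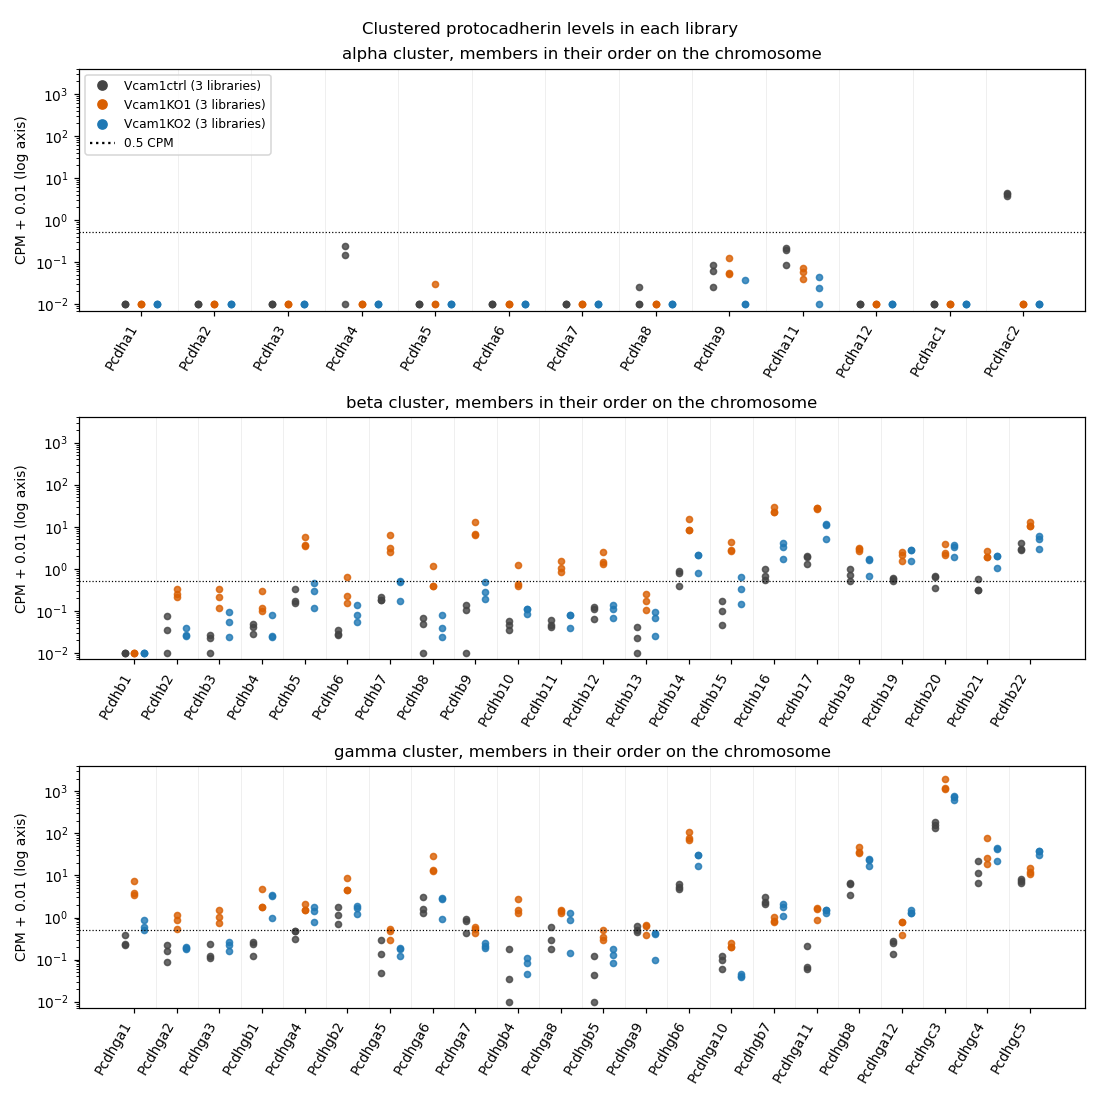
CPM plus 0.01 on a log axis for each of the 57 members in their order on the chromosome, with 1 point per library (3 each of Vcam1ctrl, Vcam1KO1 and Vcam1KO2) and a dotted line at 0.5 CPM. Alpha members lie at or near 0 apart from Pcdhac2 in Vcam1ctrl, the beta points of Vcam1KO1 lie above the other conditions along most of the array, and Pcdhgc3 is the highest member in all 9 libraries.

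A single alpha isoform marked the control culture. Pcdhac2, a C-type isoform, was at 3.64, 4.10 and 4.46 CPM in the 3 Vcam1ctrl libraries and had 0 counts in all 6 clone libraries. Set against the limit of 3 counts per library, its level was at least 98.3-fold lower in Vcam1KO1 and at least 88.3-fold lower in Vcam1KO2, with edgeR adjusted p = 3.2e-05 and 4.2e-05. Per kilobase of transcript it made up 91.8% ± 1.33 (SD, n = 3) of the alpha level in Vcam1ctrl. The other C-type alpha isoform, Pcdhac1, had no counts. The alternate alpha isoforms stayed at trace levels. Pcdha4 was at 0.135, 0 and 0.228 CPM in Vcam1ctrl and at 0 in the clones, and only 2.18% of its 31-base words are its own, so that its few counts are uncertain. Pcdha11 was at 0.183, 0.203 and 0.0759 CPM in Vcam1ctrl, at 0.0299 to 0.0626 CPM in Vcam1KO1 and at 0 to 0.0343 CPM in Vcam1KO2. Pcdha9 did not exceed 0.112 CPM, Pcdha5 0.0209 CPM and Pcdha8 0.0159 CPM in any library. Of 13 alpha members only Pcdhac2 passed the filter on low counts, so no other alpha isoform was tested.

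The most abundant clustered protocadherin was the C-type isoform Pcdhgc3 in all 9 libraries, and it was higher in both clones. It stood at 190.4, 133 and 157 CPM in Vcam1ctrl, 1224, 1169.6 and 1986 CPM in Vcam1KO1 and 755, 792 and 626 CPM in Vcam1KO2. The 3 conditions did not overlap, with Vcam1KO1 highest and Vcam1ctrl lowest. The log2 fold change was 3.19 (SE 0.24, edgeR adjusted p = 4.5e-06) for Vcam1KO1 against Vcam1ctrl and 2.18 (SE 0.23, edgeR adjusted p = 4.9e-05) for Vcam1KO2 against Vcam1ctrl. The clones differed by 1.01 (SE 0.23, edgeR adjusted p = 0.0070). Per kilobase, Pcdhgc3 made up 80.1% ± 1.62 of the gamma level in Vcam1ctrl, 86.6% ± 2.13 in Vcam1KO1 and 84.8% ± 1.83 in Vcam1KO2 (SD, n = 3 each).

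The neighboring C-type isoforms followed other patterns. Pcdhgc5 stood at 8.10, 6.57 and 7.30 CPM in Vcam1ctrl, 10.6, 12.0 and 14.8 CPM in Vcam1KO1 and 37.6, 38.2 and 30.9 CPM in Vcam1KO2. The conditions did not overlap, and here Vcam1KO2 was the highest. The log2 fold change against Vcam1ctrl was 0.76 (SE 0.16, edgeR adjusted p = 0.0028) in Vcam1KO1 and 2.28 (SE 0.17, edgeR adjusted p = 4.9e-06) in Vcam1KO2, and Vcam1KO1 was lower than Vcam1KO2 by a log2 fold change of -1.52 (SE 0.16, edgeR adjusted p = 1.7e-04). Pcdhgc4 stood at 11.4, 6.66 and 22.2 CPM in Vcam1ctrl, 77.2, 26.3 and 18.6 CPM in Vcam1KO1 and 42.8, 44.0 and 22.3 CPM in Vcam1KO2. Its libraries overlapped between Vcam1ctrl and Vcam1KO1, with the first Vcam1KO1 library far above the other 2. The log2 fold change was 1.60 (SE 0.58, edgeR adjusted p = 0.038) in Vcam1KO1 and 1.44 (SE 0.58, edgeR adjusted p = 0.064) in Vcam1KO2. Without the first Vcam1KO1 library the former value was 0.69 with edgeR adjusted p = 0.25, and it also missed the threshold without the first or second control library (adjusted p = 0.11 and 0.13), without the first or second Vcam1KO2 library (adjusted p = 0.060 and 0.052), with limma-voom (adjusted p = 0.055) and in a fit on the 6 libraries of Vcam1ctrl and Vcam1KO1 (adjusted p = 0.065). The value for Vcam1KO2 passed with DESeq2 (adjusted p = 0.025), with no filter (adjusted p = 0.029), in a fit on its own 6 libraries (adjusted p = 0.029), without control library 3 (a log2 fold change of 2.0, adjusted p = 0.030) and without Vcam1KO1 library 1 or 3 (adjusted p = 0.026 and 0.038).

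Among the alternate gamma isoforms of the A and B types, Pcdhgb6 and Pcdhgb8 led in every condition, and most isoforms were higher in Vcam1KO1. Pcdhgb6 stood at 6.15, 4.87 and 5.42 CPM in Vcam1ctrl, 71.8, 75.9 and 109 CPM in Vcam1KO1 and 30.2, 30.3 and 16.8 CPM in Vcam1KO2. The conditions did not overlap, and the order was that of Pcdhgc3. The log2 fold change was 3.96 (SE 0.27, edgeR adjusted p = 2.3e-06) in Vcam1KO1, 2.23 (SE 0.25, edgeR adjusted p = 7.4e-05) in Vcam1KO2 and 1.73 (SE 0.25, edgeR adjusted p = 7.4e-04) between the clones. Pcdhgb8, named after its values were seen, stood at 6.52, 6.11 and 3.45 CPM in Vcam1ctrl, 34.8, 35.3 and 46.6 CPM in Vcam1KO1 and 23.9, 24.0 and 17.0 CPM in Vcam1KO2. It rose in both clones, by 2.86 (SE 0.27, edgeR adjusted p = 1.6e-05) and 2.01 (SE 0.26, edgeR adjusted p = 1.6e-04) on the log2 scale. Per kilobase, Pcdhgb6 took 28.3% ± 5.65 of the summed A- and B-type level in Vcam1ctrl, 50.9% ± 1.37 in Vcam1KO1 and 41.1% ± 1.74 in Vcam1KO2, and Pcdhgb8 took 27.1% ± 5.16, 23.7% ± 1.88 and 35.9% ± 3.59 (SD, n = 3 each).

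A few A- and B-type isoforms separated the clones. Pcdhgb4 stood at 0.167, 0 and 0.0253 CPM in Vcam1ctrl, 1.53, 1.25 and 2.74 CPM in Vcam1KO1 and 0.0343, 0.0989 and 0.0739 CPM in Vcam1KO2. Vcam1KO1 was the only condition above trace levels, with log2 fold changes of 4.56 (SE 0.80, edgeR adjusted p = 8.7e-04) against Vcam1ctrl and 4.68 (SE 0.83, edgeR adjusted p = 0.0023) against Vcam1KO2. Pcdhga12, the last A-type isoform before the C types, stood at 0.271, 0.129 and 0.240 CPM in Vcam1ctrl, 0.763, 0.761 and 0.367 CPM in Vcam1KO1 and 1.30, 1.47 and 1.26 CPM in Vcam1KO2. It was highest in Vcam1KO2 with no overlap, by a log2 fold change of 2.61 (SE 0.39, edgeR adjusted p = 4.1e-04) against Vcam1ctrl. The difference between the clones was -1.08 (SE 0.36, edgeR adjusted p = 0.041) and missed the threshold when any 1 of 8 of the 9 libraries was left out. The exception was the second control library.

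Other isoforms of this group rose alike in both clones or were lower. Pcdhgb1 stood at 0.255, 0.111 and 0.228 CPM in Vcam1ctrl, 1.78, 1.78 and 4.88 CPM in Vcam1KO1 and 3.17, 3.35 and 0.991 CPM in Vcam1KO2. Its log2 fold changes were 3.77 (SE 0.63, edgeR adjusted p = 6.5e-04) and 3.60 (SE 0.63, edgeR adjusted p = 0.0010), and the clones overlapped. Pcdhga11 stood at 0.0558, 0.203 and 0.0506 CPM in Vcam1ctrl, 1.60, 1.69 and 0.862 CPM in Vcam1KO1 and 1.52, 1.48 and 1.27 CPM in Vcam1KO2. It rose by 3.86 (SE 0.53, edgeR adjusted p = 1.9e-04) and 3.90 (SE 0.53, edgeR adjusted p = 2.3e-04) on the log2 scale. The difference between the clones was 0.17 (SE 0.54) for Pcdhgb1 and -0.04 (SE 0.44) for Pcdhga11, and neither passed the test. Pcdhgb7 went the other way. It stood at 3.11, 2.31 and 2.04 CPM in Vcam1ctrl, 0.823, 1.03 and 0.766 CPM in Vcam1KO1 and 2.12, 1.72 and 1.05 CPM in Vcam1KO2. Vcam1KO1 lay below Vcam1ctrl with a log2 fold change of -1.50 (SE 0.32, edgeR adjusted p = 0.0027), while Vcam1KO2 gave -0.61 (SE 0.31, edgeR adjusted p = 0.13). Its share of the A- and B-type level per kilobase was 12.4% ± 0.470 in Vcam1ctrl, 0.544% ± 0.183 in Vcam1KO1 and 2.58% ± 0.301 in Vcam1KO2 (SD, n = 3 each). Pcdhga7 stood at 0.900, 0.812 and 0.417 CPM in Vcam1ctrl, 0.419, 0.522 and 0.590 CPM in Vcam1KO1 and 0.206, 0.240 and 0.177 CPM in Vcam1KO2. It was lower in Vcam1KO2 by a log2 fold change of -1.76 (SE 0.37, edgeR adjusted p = 0.0031), and Vcam1KO1 overlapped with the control.

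The remaining 11 A- and B-type isoforms had log2 fold changes of 0.05 to 4.15 in Vcam1KO1, where 9 rose and Pcdhga5 and Pcdhga9 did not pass the test. In Vcam1KO2 they had -1.37 to 1.69, where Pcdhga1 and Pcdhga4 rose and Pcdhga10 was lower. Pcdhga10, singled out after its values were seen, was at 0.0876, 0.111 and 0.0506 CPM in Vcam1ctrl and at or under the limit of detection in every Vcam1KO2 library, at least 1.80-fold lower (edgeR adjusted p = 0.045).

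The beta genes gave the widest separation of the clones. Pcdhb17, the leading beta gene of both clones, stood at 1.88, 1.29 and 1.96 CPM in Vcam1ctrl, 28.6, 27.0 and 28.4 CPM in Vcam1KO1 and 11, 11.3 and 5.19 CPM in Vcam1KO2. The conditions did not overlap, with log2 fold changes of 4.02 (SE 0.32, edgeR adjusted p = 5.5e-06) and 2.41 (SE 0.30, edgeR adjusted p = 1.2e-04) against Vcam1ctrl. Pcdhb16 stood at 1.0, 0.535 and 0.645 CPM in Vcam1ctrl, 22.5, 21.9 and 29.0 CPM in Vcam1KO1 and 3.99, 3.31 and 1.73 CPM in Vcam1KO2. The conditions again stood apart, by 5.04 (SE 0.38, edgeR adjusted p = 3.9e-06) and 2.02 (SE 0.34, edgeR adjusted p = 8.6e-04). Pcdhb22 led the beta genes of the control culture. It stood at 4.02, 2.82 and 2.98 CPM in Vcam1ctrl, 10.4, 10.1 and 12.9 CPM in Vcam1KO1 and 6.11, 5.23 and 2.99 CPM in Vcam1KO2, where it overlapped with the control. It rose by 1.76 in Vcam1KO1 (SE 0.28, edgeR adjusted p = 4.6e-04), and the value for Vcam1KO2 was 0.54 (SE 0.27, edgeR adjusted p = 0.13), which passed the threshold without the third Vcam1KO2 library (0.77, adjusted p = 0.021). Per kilobase it made up 27.8% ± 2.70 of the beta level in Vcam1ctrl, 7.22% ± 0.559 in Vcam1KO1 and 12.6% ± 1.03 in Vcam1KO2 (SD, n = 3 each).

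Pcdhb9 had the largest fitted rise of any member in Vcam1KO1. It stood at 0.0956, 0 and 0.126 CPM in Vcam1ctrl, 6.54, 6.46 and 13.2 CPM in Vcam1KO1 and 0.480, 0.269 and 0.177 CPM in Vcam1KO2. It was at trace levels in the control culture, and the third Vcam1KO1 library was the highest. The log2 fold change was 6.72 (SE 0.70, edgeR adjusted p = 3.4e-05) in Vcam1KO1, 1.89 (SE 0.69, edgeR adjusted p = 0.043) in Vcam1KO2 and 4.83 (SE 0.62, edgeR adjusted p = 4.2e-04) between the clones. The call in Vcam1KO2 was lost without any 1 of 6 libraries, namely the first or second of each condition, with adjusted p values of 0.052 to 0.16. It was also lost with limma-voom (adjusted p = 0.075), upper-quartile scaling (0.051), a filter at a mean of 1 CPM (0.052) and a fit on 6 libraries (0.063). Pcdhb11 stood at 0.0319, 0.0369 and 0.0506 CPM in Vcam1ctrl, 1.05, 0.814 and 1.52 CPM in Vcam1KO1 and 0.0685, 0.0707 and 0.0296 CPM in Vcam1KO2. Pcdhb12 stood at 0.112, 0.0553 and 0.101 CPM, 1.30, 1.42 and 2.46 CPM, and 0.103, 0.127 and 0.0591 CPM in the same order. Both genes were above trace levels in Vcam1KO1 alone. They rose there by 4.78 (SE 0.45, edgeR adjusted p = 1.8e-05) and 4.19 (SE 0.44, edgeR adjusted p = 3.3e-05), with 0.50 (SE 0.54) and 0.05 (SE 0.48) in Vcam1KO2, where neither passed the test. Pcdhb8 shared this pattern at a lower count, with 0.389, 0.386 and 1.13 CPM in Vcam1KO1 and at most 0.0685 CPM in any other library. Pcdhb15 stood at 0.159, 0.0369 and 0.0885 CPM in Vcam1ctrl, 2.84, 2.69 and 4.26 CPM in Vcam1KO1 and 0.325, 0.636 and 0.133 CPM in Vcam1KO2, with log2 fold changes of 4.97 (SE 0.63, edgeR adjusted p = 1.2e-04) and 1.82 (SE 0.61, edgeR adjusted p = 0.032). The second of these calls was lost without control library 2 or 3 (adjusted p = 0.083 and 0.085), without the first or second Vcam1KO2 library (adjusted p = 0.058 and 0.16), with limma-voom (adjusted p = 0.066) and in a fit on 6 libraries (adjusted p = 0.052).

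Toward the end of the array, no difference between the clones passed the test for Pcdhb19, Pcdhb20 and Pcdhb21, while Pcdhb18 and the last gene, Pcdhb22, were higher in Vcam1KO1 than in Vcam1KO2. Pcdhb20 stood at 0.677, 0.332 and 0.620 CPM in Vcam1ctrl, 2.39, 2.14 and 3.91 CPM in Vcam1KO1 and 3.68, 3.32 and 1.86 CPM in Vcam1KO2. Both clones lay above the control and overlapped with each other. The log2 fold change was 2.35 (SE 0.39, edgeR adjusted p = 6.8e-04) in Vcam1KO1 and 2.42 (SE 0.40, edgeR adjusted p = 7.1e-04) in Vcam1KO2, with -0.07 (SE 0.37) between the clones. Pcdhb19 and Pcdhb21, named after their values were seen, lie on either side of it. Their differences between the clones were -0.22 (SE 0.30) and 0.31 (SE 0.35), and neither passed the test. Pcdhb18, next upstream, stood at 0.964, 0.719 and 0.506 CPM in Vcam1ctrl, 3.04, 2.66 and 2.90 CPM in Vcam1KO1 and 1.68, 1.63 and 0.680 CPM in Vcam1KO2. It rose in Vcam1KO1 (1.96, SE 0.38, edgeR adjusted p = 0.0016), and the value in Vcam1KO2 was 0.85 (SE 0.38, edgeR adjusted p = 0.086), which passed the threshold without the third Vcam1KO2 library (1.15, adjusted p = 0.015). The remaining 7 tested beta genes all rose in Vcam1KO1, by 1.87 to 4.44 on the log2 scale, and had -0.76 to 2.12 in Vcam1KO2, where Pcdhb14, Pcdhb19 and Pcdhb21 rose. Of the 5 beta genes not tested, Pcdhb1 had no counts and Pcdhb3, Pcdhb4, Pcdhb6 and Pcdhb13 did not exceed 0.638 CPM in any library, with their highest value in the third Vcam1KO1 library.

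From Pcdhb2 to Pcdhb16 the tested genes were all higher in Vcam1KO1, by 2.66 to 4.83 on the log2 scale. The value was 1.61 for Pcdhb17 and 1.11 for Pcdhb18, and it lay between -0.22 and 0.31 for Pcdhb19 to Pcdhb21 before 1.22 for Pcdhb22. Pcdhb2, Pcdhb8, Pcdhb10, Pcdhb11 and Pcdhb12 entered the test only through Vcam1KO1, being at trace levels in the other conditions, so they could enter only with a large value, and Pcdhb3, Pcdhb4, Pcdhb6 and Pcdhb13 were not tested. The values are therefore a description of the tested genes and not support for a trend along the array.

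**Figure D2:**
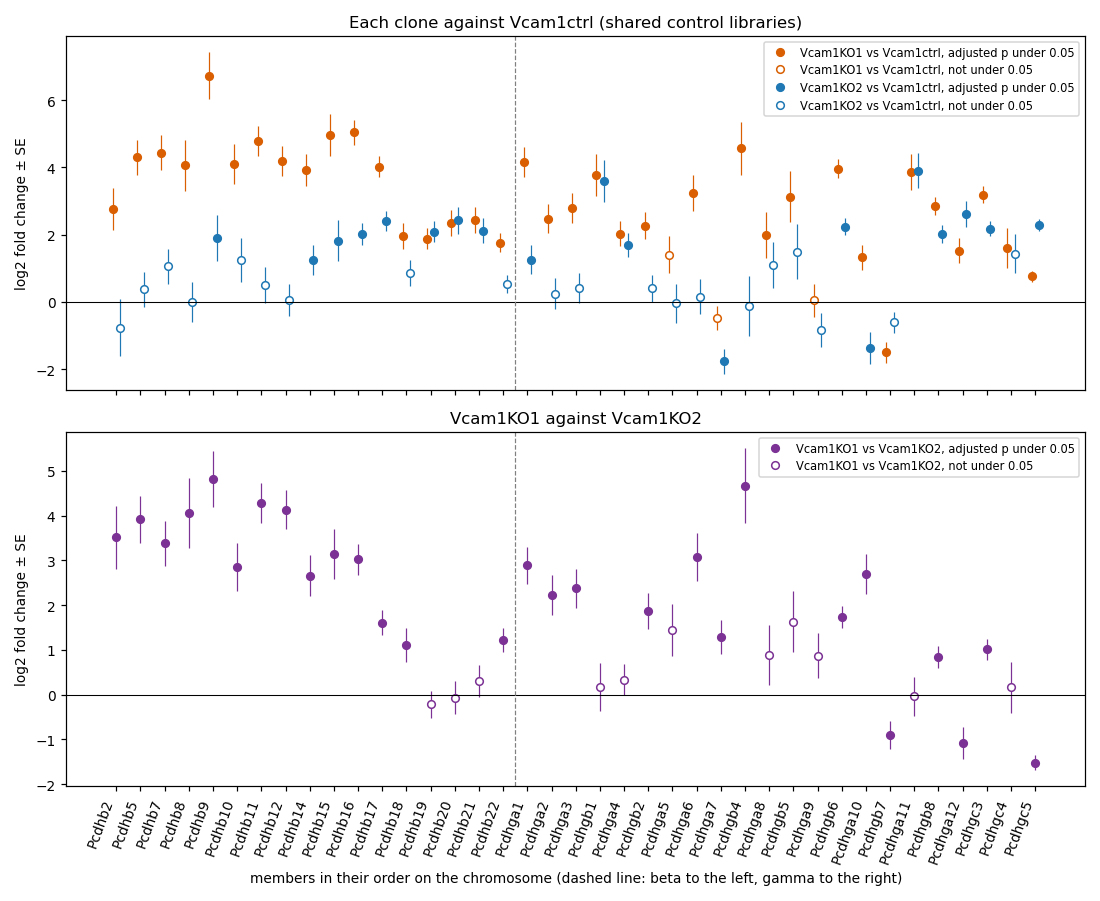
Log2 fold change with its standard error for the tested beta and gamma members in their order on the chromosome, above for each clone against the same 3 Vcam1ctrl libraries and below for Vcam1KO1 against Vcam1KO2, with filled points for an adjusted p under 0.05. The difference between the clones is between 2.66 and 4.83 from Pcdhb2 to Pcdhb16 and lies near 0 from Pcdhb19 to Pcdhb21.

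Summed over each cluster, the beta and gamma levels were highest in Vcam1KO1 and lowest in Vcam1ctrl, and the alpha level was highest in Vcam1ctrl. The alpha total was 4.39 ± 0.414 CPM in Vcam1ctrl, 0.120 ± 0.0426 CPM in Vcam1KO1 and 0.0258 ± 0.00997 CPM in Vcam1KO2 (SD, n = 3 each). The beta total was 9.48 ± 2.11, 109.6 ± 22.1 and 28.8 ± 10.5 CPM, and the gamma total 201 ± 34.8, 1681 ± 485 and 859 ± 119 CPM. Beta and gamma libraries of the 3 conditions did not overlap. The beta total was 11.6 times the control mean in Vcam1KO1 and 3.04 times in Vcam1KO2, and the gamma total 8.37 and 4.28 times. Without Pcdhgc3, Pcdhgc4 and Pcdhgc5, the gamma total was 19.9 ± 4.86, 168.5 ± 44.0 and 62.1 ± 16.6 CPM (SD, n = 3 each). In RNA from bulk cultures, a change in the fraction of cells that use an isoform and a change in its RNA per cell cannot be told apart.

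**Figure D3:**
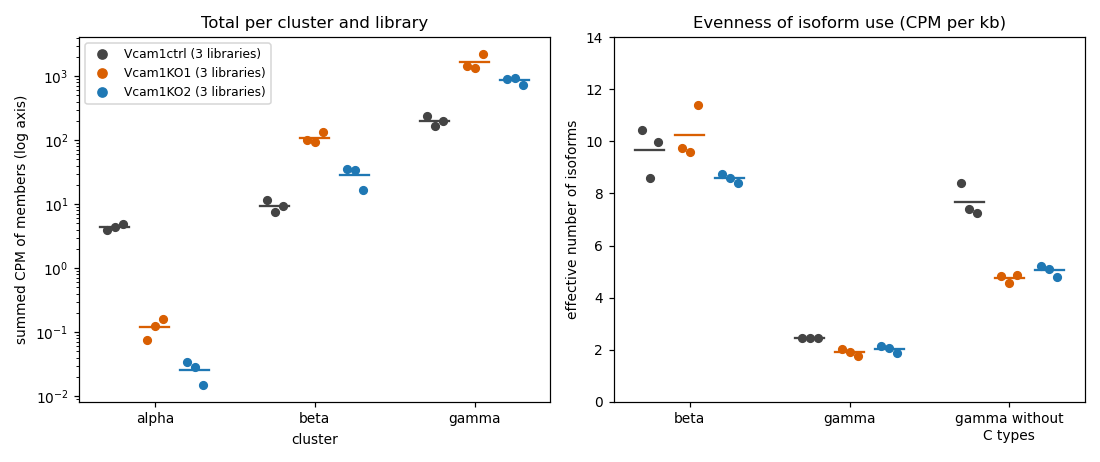
Left, summed CPM of the alpha, beta and gamma members on a log axis, and right, the effective number of isoforms from levels per kilobase, with 1 point per library and a bar at the mean of 3 libraries. The beta total rises from a mean of 9.48 CPM in Vcam1ctrl to 28.8 CPM in Vcam1KO2 and 109.6 CPM in Vcam1KO1, while the alpha total is highest in Vcam1ctrl.

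More isoforms above a fixed level did not mean a more even use of them. The effective number of isoforms, the number of equally used isoforms that would give the same Shannon diversity, was 9.68 ± 0.966 for beta genes in Vcam1ctrl, 10.2 ± 0.989 in Vcam1KO1 and 8.58 ± 0.171 in Vcam1KO2, computed from levels per kilobase (SD, n = 3 each). The ranges of Vcam1ctrl and Vcam1KO1 overlapped. For gamma it was 2.45 ± 0.0112, 1.89 ± 0.141 and 2.02 ± 0.141, as Pcdhgc3 took most of the level. For the A and B types without the C types, a restriction made after the data were seen, it was 7.68 ± 0.624 in Vcam1ctrl, 4.74 ± 0.167 in Vcam1KO1 and 5.04 ± 0.224 in Vcam1KO2. Every control library there lay above every clone library, so that the clones used the A and B types less evenly while their summed level was higher. Over the 40 tested members, the Pearson correlation of log2 CPM profiles (pseudocount 0.1) was 0.967 to 0.994 between libraries of 1 condition, 0.614 to 0.743 between Vcam1ctrl and Vcam1KO1, 0.826 to 0.857 between Vcam1ctrl and Vcam1KO2 and 0.794 to 0.894 between the clones. The 3 passages of each condition thus gave similar profiles. Several of the 40 members passed the filter only through the condition in which they were high, which can lower the values between conditions. Those values are a description and not support for a profile of its own in each condition.

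**Figure D4:**
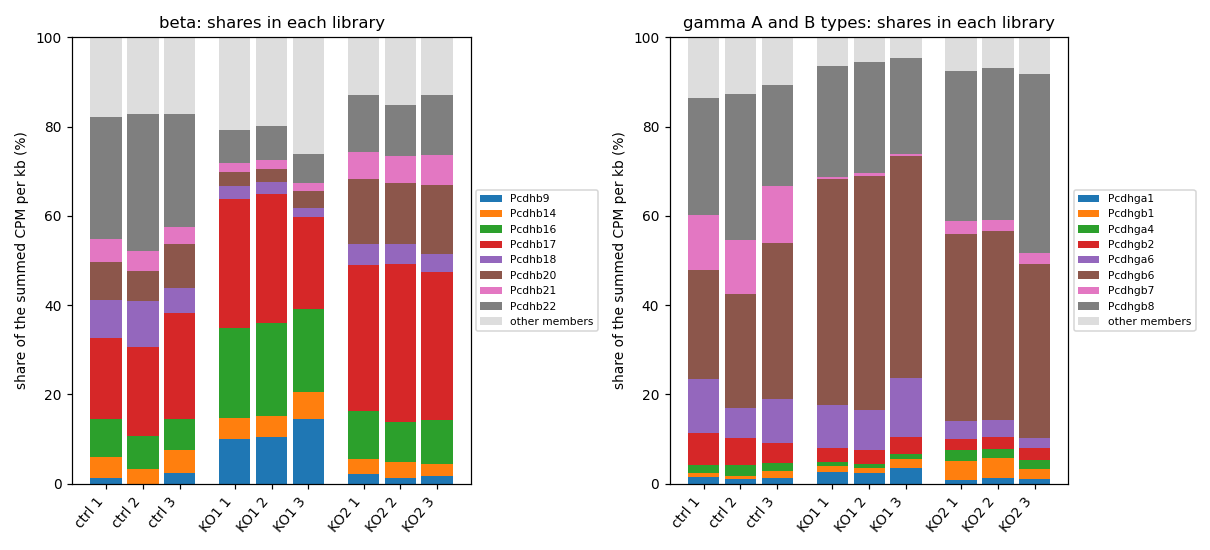
Share of each isoform in the summed CPM per kilobase of the beta genes (left) and of the A- and B-type gamma isoforms (right), 1 bar per library, with members outside the 8 largest in gray. Pcdhb22 is the largest beta share in Vcam1ctrl and Pcdhb17 in both clones, Pcdhb9 is visible mainly in Vcam1KO1, and Pcdhgb7 narrows from 12.4% in Vcam1ctrl to 0.544% in Vcam1KO1.

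Tests were run across all 17672 genes that passed the filter on low counts, and 40 of the 57 members passed (1 alpha, 17 beta, 22 gamma). Several passed only through the condition in which they were high, so the counts below describe the tested members and are not support for a trend. In Vcam1KO1 against Vcam1ctrl, 35 members were higher and 2 lower (Pcdhac2 and Pcdhgb7), where 29.9% of all tested genes were higher and 30% lower. All 17 tested beta genes and 18 gamma isoforms were higher. In Vcam1KO2 against the same control libraries, 17 members were higher (8 beta, 9 gamma) and 3 lower (Pcdhac2, Pcdhga7 and Pcdhga10), against 25.3% and 26.1% of all tested genes. In Vcam1KO1 against Vcam1KO2, 25 members were higher in Vcam1KO1 (14 beta, 11 gamma) and 3 lower (Pcdhgb7, Pcdhga12 and Pcdhgc5), against 20.2% and 18.5%. The median log2 fold change of the tested members was 2.83, 1.17 and 1.62 in these comparisons, where that of all tested genes was 0.02, 0.00 and 0.04. Without the third Vcam1KO1 library, which stood apart, the counts of higher members were 35, 20 and 22, and those of lower members 2, 3 and 1. Counted by libraries that did not overlap at all, 35 members were higher and 2 lower in Vcam1KO1 (32.9% and 33.1% of all tested genes), 17 higher and 4 lower in Vcam1KO2 (30.7% and 31.4%), and 27 higher and 3 lower in Vcam1KO1 against Vcam1KO2 (28.7% and 26.2%).

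The 6 clone libraries were also set together against the 3 control libraries, a comparison in which the clones' own differences add to the spread. Here 23 members were higher and 1 lower (Pcdhac2), against 21.7% and 21.2% of all tested genes. Pcdhgc3 (2.77, SE 0.40, edgeR adjusted p = 5.2e-04), Pcdhb17 (3.44, SE 0.62, edgeR adjusted p = 0.0018) and Pcdhb20 (2.40, SE 0.39, edgeR adjusted p = 0.0010) were among the former on the log2 scale. Pcdhb8, Pcdhb12 and Pcdhgb4, which were high in Vcam1KO1 alone, did not pass, with adjusted p values of 0.095, 0.067 and 0.093. All 3 passed with DESeq2 (0.032, 0.0075 and 0.015) and in the average of the clones from the fit with 3 groups (0.047, 0.0015 and 0.030), and Pcdhb12 also passed without any 1 Vcam1KO2 library. Pcdhb11, likewise high in Vcam1KO1 alone, passed with an adjusted p of 0.049 and missed the threshold with limma-voom (0.20), upper-quartile scaling (0.052), no filter (0.057) and without any 1 control library (0.12 to 0.15). The number of higher members was 12, 13 and 13 without control library 1, 2 and 3, and the number of lower members was 2 without the third control or the first Vcam1KO2 library. All 6 clone libraries lay above all control libraries for 16 members and below them for 1 (21.2% and 23% of all tested genes).

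Replicates of a clone moved together across members. The third Vcam1KO1 library was the highest of its condition for 25 of 30 expressed isoforms, and the third Vcam1KO2 library was the lowest for 20 of 20. In Vcam1ctrl the first library was the highest for 10 of 13. The median ratio of the highest to the lowest library was 1.53 in Vcam1ctrl, 1.76 in Vcam1KO1 and 1.97 in Vcam1KO2, with the widest ratio of 4.14 for Pcdhgc4 in Vcam1KO1. The third library of each clone also stood out for genes that maintain DNA methylation and are high in dividing cells, singled out here after their values were seen. Uhrf1 was at 133, 145 and 89.7 CPM in Vcam1ctrl, 87.5, 129 and 16.0 CPM in Vcam1KO1 and 139.6, 156 and 292 CPM in Vcam1KO2. Dnmt1 was at 177, 174 and 131, 123, 151 and 59.3, and 164, 173 and 257 CPM in the same order. Both were thus lowest in the Vcam1KO1 library and highest in the Vcam1KO2 library in which protocadherins deviated the opposite way. In Vcam1ctrl both were lowest in the third library, while the first was the highest for 10 of 13 isoforms. The part of Uhrf1 and Dnmt1 in the protocadherin levels was not tested.

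Genes that control choice and silencing at these clusters were measured from a list of 27, all tested. In Vcam1KO1, 7 were higher and 1 lower than in Vcam1ctrl, and in Vcam1KO2, 9 were higher and 0 lower (29.9% and 30% of all genes for Vcam1KO1, 25.3% and 26.1% for Vcam1KO2). Between the clones 3 were higher and 6 lower in Vcam1KO1 (20.2% and 18.5% of all genes). Tet1, which oxidizes methylated cytosine, stood at 0.0956, 0.240 and 0.240 CPM in Vcam1ctrl, 5.31, 3.53 and 4.93 CPM in Vcam1KO1 and 1.83, 1.37 and 1.67 CPM in Vcam1KO2. The 3 conditions did not overlap and had the order of the beta and gamma totals. Tet1 rose by 4.62 (SE 0.39, edgeR adjusted p = 8.8e-06) and 3.13 (SE 0.38, edgeR adjusted p = 1.1e-04) on the log2 scale. Ctcf, whose protein anchors the promoter loops, was at 54.8 ± 5.78 CPM in Vcam1ctrl, 55.7 ± 4.5 CPM in Vcam1KO1 and 55.1 ± 2.69 CPM in Vcam1KO2 (SD, n = 3 each). Dnmt3b, a methyltransferase that sets promoter methylation, was at 3.37 ± 0.373, 3.19 ± 0.322 and 3.46 ± 0.279 CPM. Neither passed the test. Dnmt3a, another methyltransferase of the list, added after its values were seen, was at 28.5 ± 1.10, 61.5 ± 23.5 and 36.0 ± 2.65 CPM. It rose in Vcam1KO1 by 1.11 (SE 0.22, edgeR adjusted p = 0.0020) and was also higher there than in Vcam1KO2. Its change in Vcam1KO2 against Vcam1ctrl did not pass the test. Pds5b, a cohesin regulator, rose by 1.22 (SE 0.08, edgeR adjusted p = 2.3e-06) and 1.04 (SE 0.08, edgeR adjusted p = 8.3e-06) in Vcam1KO1 and Vcam1KO2. Smchd1, a silencer of clustered genes, rose by 0.45 (SE 0.16, edgeR adjusted p = 0.034) and 0.84 (SE 0.16, edgeR adjusted p = 0.0017).

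Most neuronal markers stayed low where protocadherins were high. Of 10 neuronal and neuroendocrine markers, Rbfox3, Snap25, Stmn2 and Neurod1 were at or under the limit of detection in every library of both clones, and 3 markers were tested. Tubb3 rose in both clones, from 1.74 ± 1.58 CPM in Vcam1ctrl to 18.3 ± 5.24 CPM in Vcam1KO1 and 74.0 ± 36.7 CPM in Vcam1KO2 (SD, n = 3 each). The summed level of the list was 8.37 to 13.4, 19.3 to 40.4 and 57.1 to 123 CPM in that order, and thus highest in Vcam1KO2, not in Vcam1KO1. Gfap, a glial marker, was at 0.0718 ± 0.0329 CPM in Vcam1ctrl, 1.17 ± 0.444 CPM in Vcam1KO1 and 0.237 ± 0.0620 CPM in Vcam1KO2 (SD, n = 3 each) and was higher in both clones.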

How the data were processed

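Stranded, paired-end mRNA libraries were made from 3 conditions with 3 libraries each. The authors pseudoaligned the reads to GRCm38 transcripts with kallisto 0.46.1 and deposited estimated counts per gene symbol, not normalized. How transcripts were summed to genes is not given in the sources used here. All estimated counts were whole numbers, and 0 columns were left out. Conditions were taken from the labels.

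Of 55276 symbols, 17672 passed the filterByExpr function of edgeR 4.0.16, run in R 4.3.3 after TMM scaling. All p values are from edgeR's quasi-likelihood test over these genes with Benjamini-Hochberg adjustment and a threshold of 0.05. Both clones were compared with Vcam1ctrl and with each other in a fit with 3 groups over 9 libraries, and the clones together in a fit with 2 groups. The clones share their control libraries. SE is the size of the log2 fold change divided by the square root of F. The code was tested on simulated data. Totals of 53415907 to 125223073 counts per library set the limit of detection at 3 counts, which covers counting error only. With 3 libraries the spread between libraries limits the precision.

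Lengths, positions and 31-base words were read from GENCODE vM21, another release than that of the counts, with the longest coding transcript per member. Members named with values, 26 in all, are the 3 highest of each cluster and condition, the 5 with the largest change in each direction and comparison (past the threshold, at least 0.5 CPM on average in 1 group, no overlap), and the C types. The members and the lists (cluster control, partners, other protocadherins and large cadherins, neighbors, and cell type markers) were chosen with earlier results of these data known. Not reported here are some genes of these lists and part of the genotype.

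Alternatives were limma-voom (limma 3.58.1, the study's own test), DESeq2 1.42.0, upper-quartile scaling, no filter, a filter at a mean of 1 CPM, fits on 6 libraries, the average of the clones, leaving out each library, and expression at 0.1 or 1 CPM.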

Additional observations from a re-analysis of the deposited data

Results flagged for a closer look

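The effect against the shared control libraries differed between the clones by the test of Vcam1KO1 against Vcam1KO2 for 16 of the members described by name. Values are the log2 difference Vcam1KO1 minus Vcam1KO2, each with an adjusted p under 0.05 from edgeR's quasi-likelihood test. Among beta genes it was 4.07 for Pcdhb8, 4.83 for Pcdhb9, 4.28 for Pcdhb11, 4.14 for Pcdhb12, 3.15 for Pcdhb15, 3.02 for Pcdhb16, 1.61 for Pcdhb17, 1.11 for Pcdhb18 and 1.22 for Pcdhb22. Among A- and B-type gamma isoforms it was 4.68 for Pcdhgb4, 1.73 for Pcdhgb6, 1.29 for Pcdhga7, -0.90 for Pcdhgb7 and -1.08 for Pcdhga12. For the C types it was 1.01 for Pcdhgc3 and -1.52 for Pcdhgc5. The 13 positive values include all 9 beta genes, and the 3 negative ones are gamma isoforms. Members were named partly for a large change in these comparisons, so these counts describe the named members and are not support for a trend. Of all tested genes, 20.2% were higher and 18.5% lower in Vcam1KO1 than in Vcam1KO2. The smallest in size, for Pcdhgb7, had an adjusted p of 0.050 (rounded) and missed the threshold when any 1 library was left out other than the second control or the third Vcam1KO2 library. It also missed it with limma-voom (0.079), upper-quartile scaling (0.064), no filter (0.068), the 1 CPM filter (0.051) and the 6 clone libraries alone (0.058), where the numbers are adjusted p values. The value for Pcdhga12 missed it with upper-quartile scaling and with no filter (adjusted p = 0.050, rounded, and 0.065) and without any 1 library other than the second control library, that for Pcdhb18 without the second control library or any 1 clone library, and that for Pcdhga7 without the second or the third Vcam1KO1 library or any 1 Vcam1KO2 library. Each value comes from 1 clone per side.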

How the results depend on the processing

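Alternatives for single genes were run for the tested members named by the rule, not for the other tested members. No value that passed the threshold, as reported or under an alternative, changed sign there. Values that did not pass changed sign under some alternatives for Pcdhb8, Pcdhb12 and Pcdhgb4 in Vcam1KO2 and for Pcdhb20, Pcdhgb1, Pcdhga11 and Pcdhgc4 between the clones. Of the alternative values 1095 stayed on the same side of the threshold, 99 fell short of it and 24 came to pass it. With only genes of a mean of at least 1 CPM, 24 members were tested, and 22 were higher in Vcam1KO1, 1 was lower in Vcam1KO2, and 15 were higher and 1 lower in Vcam1KO1 against Vcam1KO2, since fewer members were tested. In that last comparison 1 member was lower with upper-quartile scaling or with no filter. In the combined comparison 14 members were higher with limma-voom, while 2 were lower with limma-voom, DESeq2, upper-quartile scaling or the 1 CPM filter and 3 with no filter or the average of the clones. The cause was not tested. The control culture expressed 27 members at 0.1 CPM, a level at which the counts of both clones were larger as well. Without division by length the effective number was 8.28 in Vcam1ctrl and 8.31 in Vcam1KO2 for beta and 2.48 in Vcam1ctrl for gamma. With division by length and for A and B types alone, tried after the data were seen, it was 7.68 in Vcam1ctrl, 4.74 in Vcam1KO1 and 5.04 in Vcam1KO2. Leaving out each library gave 35 to 38 higher and 2 to 3 lower members in Vcam1KO1, 13 to 21 and 2 to 4 in Vcam1KO2, 22 to 28 and 1 to 3 between the clones (1 without any of 7 libraries), and 12 to 30 and 1 to 2 in the combined comparison. No paired analysis was possible because the labels give each library its own number and no number is shared between conditions. With 3 libraries per condition, levels under the limit of 3 counts could not be compared.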

Other observations

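Protocadherins outside the clusters and the large cadherins were measured from a list of 22, of which 18 were tested. In Vcam1KO1, 5 were higher and 8 lower than in Vcam1ctrl, and in Vcam1KO2, 5 were higher and 9 lower, where 29.9% and 30% of all tested genes were higher and lower in Vcam1KO1 and 25.3% and 26.1% in Vcam1KO2. Pcdh18 rose from 2.66, 4.39 and 1.05 CPM in Vcam1ctrl to 66.2, 51.5 and 63.2 CPM in Vcam1KO1 and 56.6, 59.4 and 57.9 CPM in Vcam1KO2 (log2 fold changes 4.5 and 4.44, edgeR adjusted p = 1.8e-05 and 2.4e-05). Pcdh19 and Pcdh7 also rose in both clones, by 3.86 and 3.0 and by 2.32 and 2.64. Pcdh9, Pcdh10 and Pcdh17 went from 2.33 ± 1.20, 0.936 ± 0.362 and 0.353 ± 0.0660 CPM (SD, n = 3 each) in Vcam1ctrl to the limit of detection in the clones. Celsr1, a planar polarity cadherin of epithelia, fell from 177 ± 56.3 CPM to 0.173 ± 0.134 CPM in Vcam1KO1 and 3.64 ± 0.795 CPM in Vcam1KO2 (SD, n = 3 each). Fat4 was at 18.9 ± 8.07, 159 ± 62.4 and 26.5 ± 5.21 CPM (SD, n = 3 each) in the order Vcam1ctrl, Vcam1KO1, Vcam1KO2. It rose in Vcam1KO1 by 3.08 on the log2 scale (edgeR adjusted p = 8.1e-05), and Vcam1KO2 overlapped with the control (0.49, edgeR adjusted p = 0.26).

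Of 17 genes next to the clusters, 15 were tested, and 2 were higher and 5 lower in Vcam1KO1, with 1 and 5 in Vcam1KO2 (29.9% and 30% of all tested genes in Vcam1KO1, 25.3% and 26.1% in Vcam1KO2). Zmat2, upstream of the alpha cluster, was at 64.3 ± 5.13, 65.1 ± 2.50 and 63.9 ± 3.58 CPM, and Taf7, which lies between the beta and gamma clusters, at 9.54 ± 3.81, 13.0 ± 7.64 and 6.76 ± 3.37 CPM (SD, n = 3 each, in the order Vcam1ctrl, Vcam1KO1, Vcam1KO2), and neither passed the test. Cd14 fell by 2.51 and 1.64, and Arap3 by 3.06 and 2.22, on the log2 scale. Of 4 predicted genes that overlap the gamma constant exons, Gm38182 stood at 2.60, 1.72 and 2.68 CPM in Vcam1ctrl, 6.75, 7.75 and 30.9 CPM in Vcam1KO1 and 2.55, 1.89 and 2.04 CPM in Vcam1KO2, so that Vcam1KO1 library 3 was far above the rest, and the other 3 had at most 0.0798 CPM in any library. Reads of such a gene and of the gamma isoforms are divided by the same estimate.

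Of 21 genes for proteins that cut or act below clustered protocadherins, 19 were tested, with 6 higher in Vcam1KO1 and 7 higher in Vcam1KO2 (29.9% and 25.3% of all tested genes). Ncstn, a subunit of gamma-secretase, which cuts these proteins after Adam10, rose by 0.75 and 0.80 on the log2 scale (edgeR adjusted p = 0.0014 and 0.0012). In the remaining marker lists, set against the 30% and 26.1% of all tested genes that were lower in Vcam1KO1 and Vcam1KO2, 1 of 4 haematopoietic genes (Ptprc) was lower in each clone, with summed levels of 3.93 to 8.88 CPM over all libraries. Of 4 endothelial genes, 1 (Cdh5) was lower in Vcam1KO1 and 0 passed in Vcam1KO2, with a sum of 0.626 to 2.0 CPM, and of 3 hepatocyte genes 2 and 3 were lower, with a sum of 38.4 to 162 CPM in Vcam1ctrl and 0.222 to 3.02 CPM in the clones.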
